A study of Homo sapiens with 9 samples.

Results

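The 10 genes described here encode proteins that hold cells in the G1 phase of the cell cycle or carry them out of it: the CDK inhibitors CDKN1A, CDKN1B, CDKN1C, CDKN2C and CDKN2D, the cyclins CCND1 and CCND3, the kinases CDK2 and CDK6, and the retinoblastoma gene RB1. They were chosen by gene symbol, and every probe set annotated to 1 of these symbols alone was taken. Of the 10 genes, 9 had such a probe set, 18 probe sets in all, among 11963 genes with 1 on the array. CDKN2C is not analysed here.

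Affymetrix arrays measured the RNA of LNCaP, an androgen-responsive line derived from a lymph node metastasis of a human prostate tumour. Before treatment, cells of every group spent 2 days with 10% serum that charcoal had depleted of steroid hormones, so all had been starved of androgen. The 3 treatments that followed have 3 arrays each, which the titles number as biological replicates: 20 µM gedunin, a plant limonoid known to inhibit HSP90 function, together with 1 nM of the synthetic androgen R1881; 1 nM R1881 with the solvent DMSO; and vehicle, which was ethanol and DMSO. No group received gedunin alone. Protocols give 24 h for every group, but the titles of the R1881 arrays give 6 h, so the time of that group is not settled.

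In G1, D-type cyclins with CDK4 or CDK6 begin to phosphorylate RB, and cyclin E with CDK2 completes this step, which frees E2F factors to transcribe the genes of DNA synthesis. CDKN1A (p21), CDKN1B (p27) and CDKN1C (p57) form the CIP/KIP family and bind cyclin-kinase complexes, above all those of CDK2. CDKN2C (p18) and CDKN2D (p19) belong to the INK4 family and bind CDK4 and CDK6. Androgen-dependent prostate cancer cells slow their exit from G1 when androgen is withdrawn. CDK4 and CDK6 proteins fold with the help of HSP90 and its co-chaperone CDC37. Arrays measure RNA, while p27 and cyclin D1 are also controlled strongly by protein breakdown.

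The group labels need a caution before any result. All 5 androgen-induced genes used as a check (KLK3, KLK2, TMPRSS2, FKBP5 and NDRG1) were lower in the group labelled R1881 than in the group labelled vehicle, with a median log2 fold change of -4.08, and all 4 androgen-repressed genes (UGT2B17, BCHE, ACKR3 and CAMK2N1) were higher, with a median of 4.25. KLK3, the gene of prostate-specific antigen, averaged 7216 ± 384 on the gedunin arrays, 1341 ± 104 in the labelled R1881 group and 11839 ± 513 in the labelled vehicle group (RMA intensity, mean ± SD, n = 3 each). These directions oppose the known androgen response, so each group is called "labelled" R1881 or vehicle and the gedunin arrays are set against each of the others. HMOX1, a stress gene, was higher on the gedunin arrays than on both other groups (log2 fold changes of 5.67 and 5.70).

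Array medians lay between 52.4 and 54.5. Of 8 measured luminal markers, 7 averaged above the lowest array median in each group, including KRT8 and KRT18, and KRT19 did not. The summed level of the luminal list ran from 14169 to 15350 on the gedunin arrays, from 6060 to 6653 on the arrays labelled R1881 and from 26252 to 28386 on those labelled vehicle. The luminal genes did not move as one: with gedunin 4 were higher and 2 lower (FOLH1 at -0.92 and HOXB13 at -1.08) than in the labelled R1881 group, and 2 were higher (EPCAM at 0.52 and FOLH1 at 0.49) and 6 lower than in the labelled vehicle group. None of 3 basal markers lay above the lowest array median. Of 6 fibroblast markers, 4 did, with sums of 429 to 447, 409 to 462 and 424 to 447 in the same order of groups, and none differed in any comparison. Of 4 leukocyte markers, CD3E and LCP1 did, with sums of 644 to 650, 489 to 556 and 906 to 956, and LCP1 alone differed. Of 4 neuroendocrine markers, SYP did in every group and ENO2 in both groups other than vehicle, with sums of 161 to 164, 159 to 171 and 142 to 149, where ENO2 differed in every comparison; with gedunin against labelled R1881 it was lower (-0.26) and the dim CHGB higher (0.17, adjusted p = 0.0424). The signal at the 3' end of the ACTB control less that at its 5' end, a sign of RNA integrity, was 0.11 to 0.16 on the gedunin arrays, 0.14 to 0.26 on the arrays labelled R1881 and 0.05 to 0.25 on those labelled vehicle (log2). The part of these values in the results below was not tested.

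With gedunin, the RNA of the inhibitors CDKN1A and CDKN1B was higher and that of CCND1 lower, whichever of the other groups was used. CDK2 was lower against labelled vehicle, while against labelled R1881 its call rested on 1 of 3 probe sets and was lost with their median (-0.08, adjusted p = 0.563). Arrays of bulk RNA cannot tell fewer cells of a kind from less RNA per cell. Against the arrays labelled R1881, CDKN1A was 1.62-fold and CDKN1B 1.20-fold higher, CCND1 1.54-fold and CDK2 1.24-fold lower. Against the arrays labelled vehicle the same 4 genes were 1.72-fold and 1.49-fold higher and 1.38-fold and 1.69-fold lower. CCND3, CDKN2D, CDK6 and RB1 passed the test in neither comparison. The comparisons share the gedunin arrays and are given side by side.

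In counts, 2 of 9 measured genes were higher and 2 lower with gedunin than in the group labelled R1881 (limma, Benjamini-Hochberg adjusted p under 0.05, brightest probe set of a gene). Over all genes 26.7% were called in that comparison, 13.7% higher and 13.0% lower. Against the arrays labelled vehicle 2 were higher and 3 lower, where 26.2% of all genes were called, 14.8% higher and 11.4% lower. Between labelled R1881 and labelled vehicle 1 gene was higher and 1 lower, where 29.5% of all genes were called, 16.3% higher and 13.2% lower. With so many of all genes called, the counts alone do not set these 9 genes apart. Their median log2 fold changes were -0.04, -0.02 and -0.11 in these comparisons, and those of all genes -0.01, -0.01 and 0.00. Of the 18 probe sets 5, 8 and 4 were called, where 24.3%, 23.5% and 27.0% of all probe sets were.

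**Figure D1:**
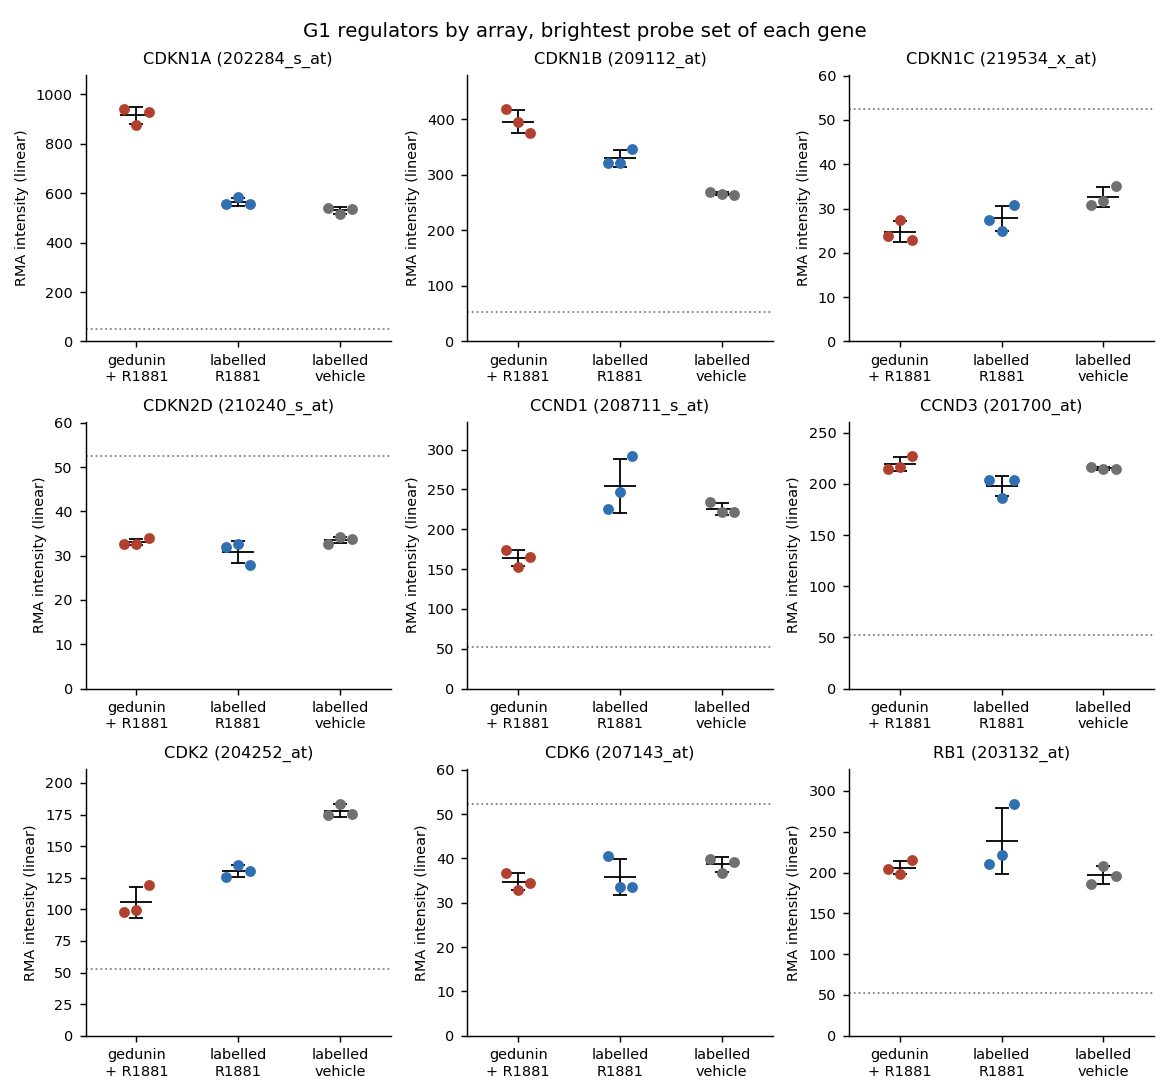
RMA intensity on a linear scale (y axis, from 0) of the brightest probe set of each of the 9 measured genes, with 1 point per array, the mean and the SD for gedunin plus R1881, labelled R1881 and labelled vehicle (n = 3 each); the dotted line is the lowest array median, 52.4. The gedunin arrays lie above all others for CDKN1A and CDKN1B and below all others for CCND1 and CDK2, while CDKN1C, CDKN2D and CDK6 lie under the dotted line in every group.

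The inhibitor genes CDKN1A and CDKN1B were the members higher on the gedunin arrays in both comparisons, so the 250 bases before the start site of each are shown (RefSeq, GRCh38.p14, both on the plus strand). They lie at chr6:36678464-36678713 and chr12:12717118-12717367. Capitals mark matches on either strand to a GC box (GGGCGG) or a CCAAT box (CCAAT).

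CDKN1A: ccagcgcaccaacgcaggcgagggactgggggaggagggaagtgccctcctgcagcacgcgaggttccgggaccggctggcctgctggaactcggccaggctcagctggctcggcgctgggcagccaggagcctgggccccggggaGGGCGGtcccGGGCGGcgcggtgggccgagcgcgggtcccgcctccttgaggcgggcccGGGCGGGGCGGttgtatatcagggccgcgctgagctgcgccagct
CDKN1B: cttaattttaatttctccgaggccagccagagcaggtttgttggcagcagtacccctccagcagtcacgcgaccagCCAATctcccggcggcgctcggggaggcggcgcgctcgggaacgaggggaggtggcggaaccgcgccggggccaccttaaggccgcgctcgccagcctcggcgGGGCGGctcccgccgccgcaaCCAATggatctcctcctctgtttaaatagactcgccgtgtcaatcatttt

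The CDKN1A window held 4 GC boxes, which began 104, 94, 45 and 40 bases before the start site, the last pair overlapping. CDKN1B had 1 GC box, at 71 bases, and 2 CCAAT boxes, at 174 and 50 bases. Among 35116 promoter windows of the same length, 42.6% held a GC box and 32.0% a CCAAT box, so neither is rare. The same search found no match in these windows to the letters used for a TATA box (TATAA, in 18.9% of windows) or an E-box (CACGTG, 6.34%). Nor did it match those used for an E2F site (TTTGGCGC, TTTCGCGC or TTTCCCGC, 2.32%). Only these exact letters were searched, so the lack of a match does not show that an element is absent. A match is a stretch of letters, not a measured binding site.

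CDKN1A encodes p21, the inhibitor that p53 and other stress signals induce to stop cells in G1. Its probe set 202284_s_at read 939, 874 and 930 on the gedunin arrays, 554, 584 and 554 in the labelled R1881 group and 540, 514 and 537 in the labelled vehicle group. The gedunin arrays lay far above both other groups, which sat close together without overlap. The log2 fold change was 0.70 ± 0.06 against the arrays labelled R1881 (SE, adjusted p = 9.51e-07) and 0.78 ± 0.06 against the arrays labelled vehicle (adjusted p = 3.53e-07). Between labelled R1881 and labelled vehicle the difference was 0.09, with a 95% interval of -0.03 to 0.21 and an adjusted p of 0.292. CDKN1A thus had its highest level with gedunin, and the other groups could not be ordered.

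CDKN1B encodes p27, the inhibitor that keeps resting cells from entering S phase. Probe set 209112_at gave 418, 394 and 375 with gedunin, 321, 321 and 347 in the labelled R1881 group and 269, 265 and 264 in the labelled vehicle group. No group overlapped another, and the levels stepped down in the order gedunin, labelled R1881, labelled vehicle. Each step passed the test: 0.26 ± 0.06 for gedunin against labelled R1881 (SE, adjusted p = 0.00489), and 0.31 ± 0.06 for labelled R1881 against labelled vehicle (adjusted p = 0.00142). Gedunin against labelled vehicle came to 0.57 ± 0.06 (adjusted p = 1.08e-05).

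CDKN1C, which encodes p57, had 5 probe sets, and all of them lay under the lowest array median in every group. Single values ran from 16.2 to 27.5 on the gedunin arrays, from 18.5 to 30.8 on the arrays labelled R1881 and from 16.1 to 35.1 on those labelled vehicle. No detection calls came with the file, so it is not known whether such dim probe sets measure the gene. The brightest, 219534_x_at, read 23.9, 27.5 and 23.0 with gedunin, 27.5, 25.0 and 30.8 in the labelled R1881 group and 30.8, 31.7 and 35.1 in the labelled vehicle group. It was lower with gedunin than on the arrays labelled vehicle, by -0.39 ± 0.09 (SE, adjusted p = 0.00564), and did not differ from labelled R1881 beyond the test (-0.16, adjusted p = 0.249). A further probe set, 213348_at, was also called against labelled vehicle (-0.25, adjusted p = 0.0122), and the other 3 were not, 219533_at having a positive value (0.13). The call of 213348_at ended without the first gedunin array (adjusted p = 0.0632) or the third vehicle array (adjusted p = 0.0515). The call of the gene was lost when the median of the 5 probe sets stood for the gene (-0.10, adjusted p = 0.322).

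The INK4 gene CDKN2D was dim too. Probe set 210240_s_at read 32.7, 32.7 and 33.9 with gedunin, 32.0, 32.7 and 28.0 in the labelled R1881 group and 32.7, 34.2 and 33.8 in the labelled vehicle group. All 3 groups overlapped, and neither this probe set nor 213586_at was called in any comparison.

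Among the D-type cyclins, CCND1, which encodes cyclin D1, was lower with gedunin on both of its probe sets. Probe set 208711_s_at read 173, 153 and 166 on the gedunin arrays, 225, 247 and 291 in the labelled R1881 group and 234, 221 and 221 in the labelled vehicle group. Every gedunin array lay below every other array, while the groups labelled R1881 and vehicle overlapped. The log2 fold change was -0.63 ± 0.09 against labelled R1881 (SE, adjusted p = 0.000119) and -0.46 ± 0.09 against labelled vehicle (adjusted p = 0.00145). The third R1881 replicate, at 291, was the highest array; without it the difference from labelled R1881 was -0.53. Probe set 208712_at read 141, 119 and 141 with gedunin, 252, 236 and 275 in the labelled R1881 group and 193, 168 and 206 in the labelled vehicle group. Here no group overlapped another, with -0.93 ± 0.09 against labelled R1881 (adjusted p = 6.28e-06) and -0.50 ± 0.09 against labelled vehicle (adjusted p = 0.00118).

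The probe sets of CCND1 gave different answers between the groups without gedunin. Labelled R1881 exceeded labelled vehicle by 0.43 ± 0.09 on 208712_at (SE, adjusted p = 0.0032) and by 0.17 on 208711_s_at, which was not called (95% interval -0.02 to 0.35, adjusted p = 0.198). The gedunin arrays were the lowest group by either probe set.

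CCND3, which encodes cyclin D3, stayed within a narrow range. Its probe set 201700_at read 214, 217 and 227 with gedunin, 204, 186 and 204 in the labelled R1881 group and 217, 214 and 214 in the labelled vehicle group. Gedunin lay above labelled R1881 without overlap, yet the difference of 0.15 (95% interval 0.03 to 0.27) had an adjusted p of 0.078. Against labelled vehicle it was 0.03 (95% interval -0.10 to 0.15). After probe sets under the lowest array median were left out, CCND3 passed against labelled R1881 (adjusted p = 0.0429), as it did with 16 added to each intensity (adjusted p = 0.0337).

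**Figure D2:**
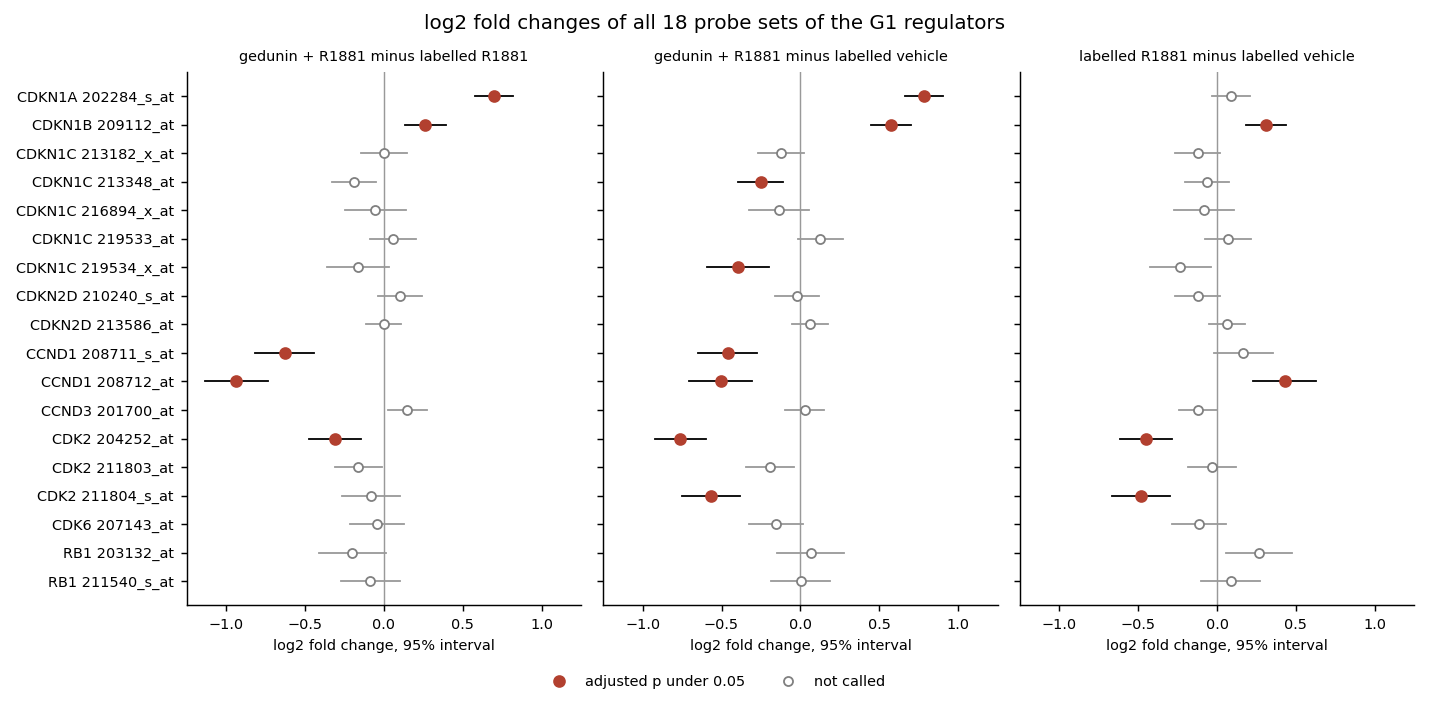
log2 fold changes (x axis) with 95% intervals of all 18 probe sets (rows) in each of the comparisons (panels); filled points have an adjusted p under 0.05 and open points were not called. CDKN1A and CDKN1B lie to the right and CCND1 to the left of 0 in both gedunin panels, and the CDK2 probe sets 204252_at and 211804_s_at have filled points to the left of 0 in both panels against labelled vehicle.

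CDK2 encodes the kinase that works with cyclins E and A at the entry into S phase. Its brightest probe set, 204252_at, read 97.5, 99.7 and 119 on the gedunin arrays, 126, 135 and 131 in the labelled R1881 group and 175, 184 and 176 in the labelled vehicle group. The groups did not overlap, and the levels went up in the order gedunin, labelled R1881, labelled vehicle. Gedunin differed by -0.31 ± 0.07 from labelled R1881 (SE, adjusted p = 0.0078) and by -0.76 ± 0.07 from labelled vehicle (adjusted p = 7.15e-06), and labelled R1881 by -0.45 ± 0.07 from labelled vehicle (adjusted p = 0.000492).

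A further CDK2 probe set, 211804_s_at, read 87.6, 73.4 and 82.9 with gedunin, 89.7, 91.0 and 77.3 in the labelled R1881 group and 129, 119 and 112 in the labelled vehicle group. By this probe set the gedunin and R1881 arrays overlapped (-0.08, 95% interval -0.27 to 0.10, adjusted p = 0.588), and both were lower than labelled vehicle, by -0.57 (adjusted p = 0.000269) and -0.48 (adjusted p = 0.000772). The dim probe set 211803_at was not called in any comparison, although it passed against labelled vehicle without the second R1881 array (-0.19, adjusted p = 0.0469). Lower CDK2 RNA against labelled vehicle was therefore seen on 2 probe sets, and against labelled R1881 on 1.

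**Figure D3:**
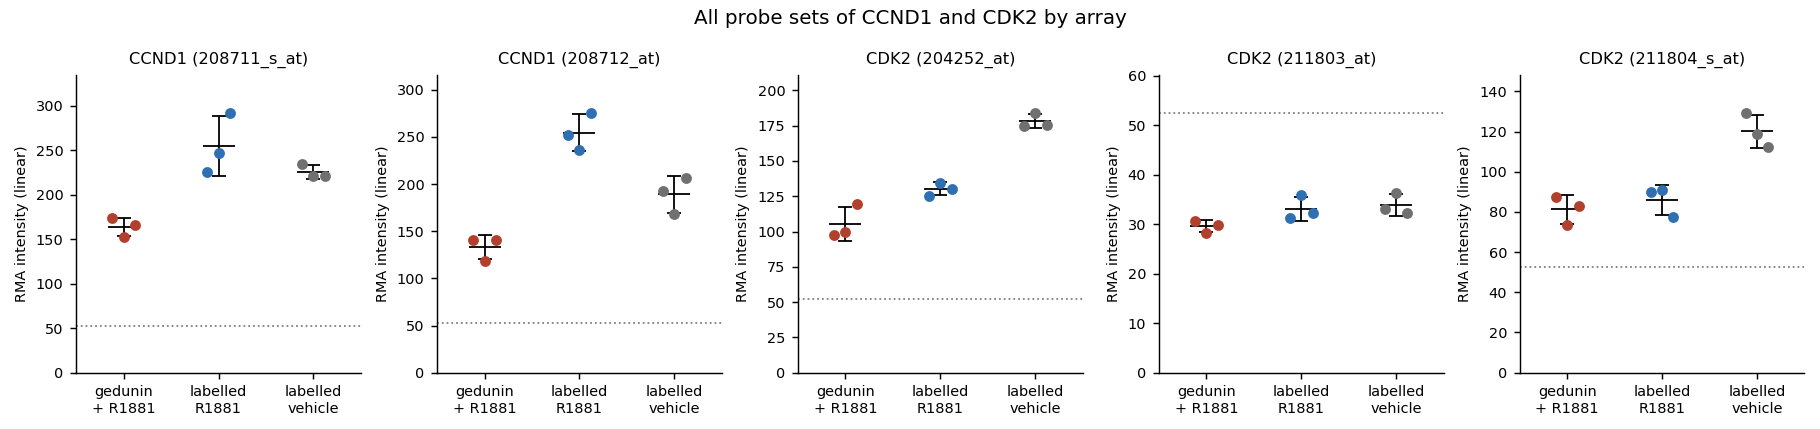
RMA intensity (y axis, linear, from 0) of each probe set of CCND1 and CDK2, with 1 point per array, mean and SD for the 3 groups; the dotted line is the lowest array median, 52.4. The gedunin arrays are lowest on both CCND1 probe sets, while for CDK2 they separate from labelled R1881 on 204252_at and overlap it on 211804_s_at.

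CDK6, a partner of the D-type cyclins, lay under the lowest array median throughout. Probe set 207143_at read 36.8, 32.9 and 34.5 with gedunin, 40.5, 33.5 and 33.6 in the labelled R1881 group and 40.0, 36.8 and 39.2 in the labelled vehicle group. The groups overlapped, and no comparison passed, with 95% intervals of -0.21 to 0.13 and -0.33 to 0.02 for gedunin against labelled R1881 and against labelled vehicle.

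RB1, whose protein restrains E2F factors, was above the lowest array median in every group on 203132_at. It read 205, 198 and 215 with gedunin, 210, 222 and 285 in the labelled R1881 group and 187, 208 and 196 in the labelled vehicle group. The third R1881 replicate stood apart from the rest. Gedunin differed from labelled R1881 by -0.20 (95% interval -0.41 to 0.01, adjusted p = 0.181) and from labelled vehicle by 0.07 (95% interval -0.15 to 0.28, adjusted p = 0.729). Labelled R1881 lay 0.27 above labelled vehicle without overlap (adjusted p = 0.0626), a difference that passed when the first R1881 replicate was left out (0.35, adjusted p = 0.0206) and fell to 0.13 without the third. The dimmer probe set 211540_s_at was not called in any comparison.

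Genes with the most similar profile were sought for the 3 members that changed at least 1.5-fold, by the root mean square difference of log2 values over the 9 arrays after each gene was centred on its mean, among 7040 genes above the lowest array median. Nearest to CDKN1A were MT2A, a metallothionein gene, at 0.0524 and ZFAND5 at 0.0545, where CDKN1A itself varied by 0.353. For CCND1 they were MCM7, a subunit of the replicative helicase, at 0.0684 and NBN, a DNA repair gene, at 0.0730, against its own 0.284. The nearest to CDK2 were PAGR1 at 0.0569 and YRDC at 0.0590, against 0.323. These are descriptions of 9 arrays in 3 groups.

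The other genes of the pathway were read from lists, of which CCNE1, CCNE2, E2F1, CDC25A and RBL1 each sit in 2. The medians of all genes given above (-0.01, -0.01 and 0.00) are the values to set beside those of the lists. The shares of all genes called (26.7%, 26.2% and 29.5%) are those to set beside the list counts, and counts near them do not set a list apart. Among the cyclins and kinases of G1 outside the members, 9 of 10 listed were measured; 3 were higher and 4 lower with gedunin than on the arrays labelled R1881 (median log2 fold change -0.04), and 3 were higher and 1 lower than on the arrays labelled vehicle (median 0.07). CCNE1, which encodes cyclin E1, the partner of CDK2, was lower in both, by -0.59 ± 0.08 (SE, adjusted p = 8.65e-05) and -0.44 ± 0.08 (adjusted p = 0.00105), and averaged 49.5, 74.1 and 66.7 in the groups gedunin, labelled R1881 and labelled vehicle, the gedunin mean being under the lowest array median. CCNE2, for cyclin E2, fell by 0.52 against labelled R1881 alone and was dim in every group. CDK4 averaged 501 ± 19 with gedunin, 681 ± 13 in the labelled R1881 group and 539 ± 5 in the labelled vehicle group (SD, n = 3 each). It was lower with gedunin than labelled R1881 by -0.44 (adjusted p = 3.33e-05) and not called against labelled vehicle (-0.11, adjusted p = 0.188).

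The cyclin A2 gene CCNA2, a partner of CDK2 in S phase, went the other way, higher by 0.34 against labelled R1881 and by 1.28 against labelled vehicle. Its further probe set was also called in both comparisons in the main fit, at 0.66 against labelled R1881. CDK7 and MNAT1, of the kinase complex that activates other CDKs, were higher with gedunin in both comparisons, by 0.28 and 0.33 against labelled R1881 and by 0.37 and 0.32 against labelled vehicle. CCNH, the cyclin gene of that complex, was instead lower with gedunin than labelled R1881 (-0.31, adjusted p = 0.00702). Against labelled vehicle CCNH was not called (0.17, adjusted p = 0.124) unless the second vehicle array was left out (adjusted p = 0.0151). The 3 higher genes against labelled R1881 became 1 without the first gedunin or the first R1881 array: CCNA2 lost its call without 4 single arrays (adjusted p = 0.0506 to 0.0831) and CDK7 without 3 (0.0754 to 0.0804). Between labelled R1881 and labelled vehicle 4 genes of the list were higher and 0 lower (median 0.15), with CCNA2 at 0.94, CCNE2 at 0.58, CCNH at 0.48 and CDK4 at 0.34.

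The inhibitors outside the members were CDKN2A, CDKN2B and CDKN3. CDKN3, a phosphatase that acts on CDK2, averaged 232 ± 11 with gedunin, 159 ± 3 in the labelled R1881 group and 95.3 ± 4.6 in the labelled vehicle group (SD, n = 3 each), and was higher with gedunin by 0.54 and 1.28. By brightest probe sets it was the only 1 of the 3 called in either gedunin comparison (list medians 0.13 and 0.14). Of the 3 CDKN2A probe sets, 1 was called for gedunin against labelled vehicle (-0.07 to 0.24 over all 3). CDKN2A was 0.24 higher on the arrays labelled R1881 than on those labelled vehicle, where 2 of 3 genes were higher and 0 lower. Its 3 probe sets ran from -0.02 to 0.28 there, and 2 were called. With the median of each gene's probe sets only 1 gene of the list was higher there.

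Of 11 RB family and E2F genes 10 were measured, with 0 higher and 4 lower with gedunin than labelled R1881 (median -0.14), and 0 higher and 2 lower than labelled vehicle (median -0.05). TFDP1 and TFDP2, which encode the DP partners that E2F factors need to bind DNA, were lower in both. Against labelled vehicle, TFDP2 lost its call when any 1 of 5 arrays was left out, gedunin replicates 2 and 3 and all of vehicle (adjusted p = 0.0533 to 0.109), which leaves 1 lower gene there. TFDP1 averaged 133 ± 4 with gedunin, 312 ± 13 in the labelled R1881 group and 172 ± 6 in the labelled vehicle group, with log2 fold changes of -1.23 and -0.38. A further TFDP1 probe set gave -0.40, which was called, and -0.21, which was not. TFDP2 had -0.59 and -0.22. The RB relatives RBL1 and RBL2 were lower by -0.39 and -0.35 against labelled R1881, and RBL1 was dim. A second RBL2 probe set was not called there (-0.17). Labelled R1881 against labelled vehicle had 4 higher and 0 lower (median 0.15): TFDP1, RBL2, TFDP2 and RBL1. The further probe sets of TFDP1 and TFDP2 were not called there (0.19 and 0.15). E2F3 was not called by its brightest probe set for gedunin against labelled R1881 (-0.15) or labelled R1881 against labelled vehicle (0.15). Its further probe set was called in these comparisons (-0.47 and 0.55). Over the alternatives, 3 to 5 genes of the list were lower with gedunin than labelled R1881.

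A further list holds genes that E2F factors are known to switch on at the start of S phase. Of 17 measured, 12 were lower and 0 higher with gedunin than on the arrays labelled R1881 (median -0.47, all genes -0.01). RRM2 and TYMS, which supply nucleotides, fell by 1.09 and 0.89 on the log2 scale, and the helicase genes MCM6 and MCM2 by 0.73 and 0.67. Against labelled vehicle 4 were lower and 1 higher (median -0.07), with RRM2 at -0.75, CDC25A at -0.51, MCM7 at -0.47 and TYMS higher at 0.47. Labelled R1881 against labelled vehicle had 9 higher and 2 lower (median 0.35), of which the dim CDC6 (-0.19, adjusted p = 0.0483) lost its call under 13 of 16 alternatives (0.051 to 0.188). The further CDC6 probe set was also called there in the main fit (-0.39). Among the higher were TYMS at 1.36, PCNA, the replication clamp, at 0.73, MCM6 at 0.61 and CCNE2 at 0.58. TYMS had a further probe set near 0 in each comparison (-0.08, -0.09 and -0.01).

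**Figure D4:**
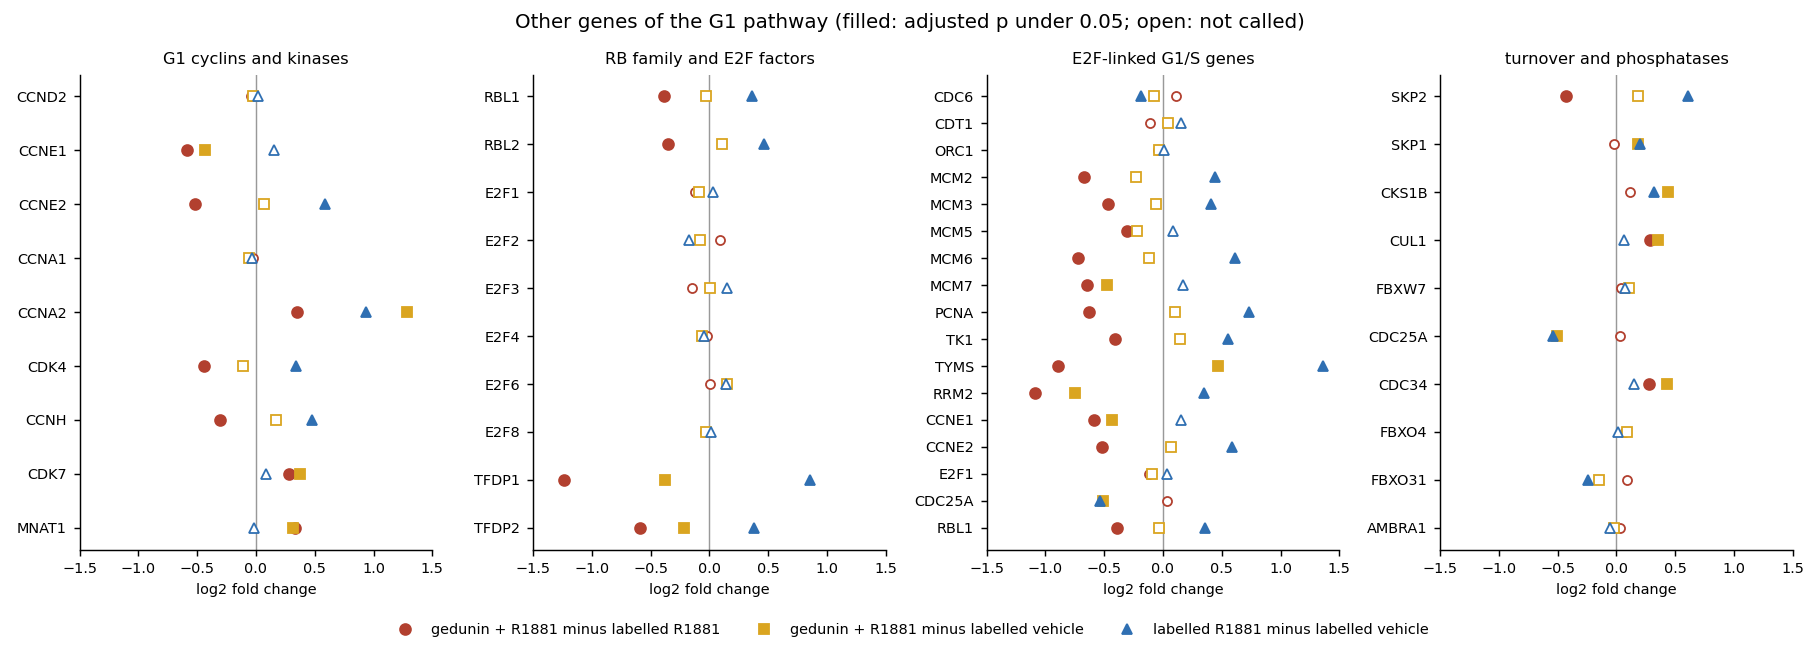
log2 fold changes (x axis) of genes (rows) in 4 lists of the G1 pathway (panels), by the brightest probe set of each gene; circles are gedunin plus R1881 minus labelled R1881, squares gedunin plus R1881 minus labelled vehicle and triangles labelled R1881 minus labelled vehicle, filled where the adjusted p was under 0.05. Of 17 E2F-linked genes 12 have filled circles to the left of 0 and none to the right.

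Genes for the breakdown and dephosphorylation of G1 regulators numbered 10 measured of 11. Against labelled R1881 2 were higher and 1 lower with gedunin (median 0.06), where 26.7% of all genes were called. SKP2, which encodes the ubiquitin ligase subunit that marks p27 for breakdown, was lower by -0.43 (adjusted p = 0.00416), averaging 58.0 ± 3.1 with gedunin and 78.0 ± 1.8 on the arrays labelled R1881 (SD, n = 3 each). The 3 SKP2 probe sets ran from -0.43 to -0.22, and 2 of them were called. With the median of each gene's probe sets 0 genes of the list were lower, so the SKP2 call was lost. CUL1, a scaffold of the same ligase, and CDC34, a ubiquitin-conjugating enzyme, were higher by 0.29 and 0.27, CDC34 losing its call without the first or the third gedunin array (adjusted p = 0.0687 to 0.0718). Against labelled vehicle 4 were higher and 1 lower (median 0.15). Of the higher, SKP1 (0.18) lost its call under 5 of 17 alternatives, 4 of them leaving out 1 array (adjusted p = 0.053 to 0.118). All 4 SKP1 probe sets were called in the main fit (0.18 to 0.47). CKS1B, the SKP2 cofactor for p27, was higher by 0.44, CDC34 by 0.43 and CUL1 by 0.36, CDC25A, a phosphatase that activates CDK2, was lower by -0.51, and SKP2 was not called (0.18, adjusted p = 0.218) unless the second vehicle array was left out (adjusted p = 0.00406). Labelled R1881 against labelled vehicle had 3 higher and 2 lower (median 0.07), with SKP2 at 0.61; of the lower, FBXO31 (-0.24) lost its call under 7 of 17 alternatives, 6 of them leaving out 1 array (replicate 3 of gedunin, each vehicle array, and replicates 1 and 3 of labelled R1881; adjusted p up to 0.174).

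Among 15 regulators of CDKN1A and the D-type cyclins, 14 were measured. With gedunin 3 were higher and 1 lower than labelled R1881 (median 0.04), where 26.7% of all genes were called. Against labelled vehicle 3 were higher and 5 lower (median -0.04), where 26.2% of all genes were called. DDIT3, KLF6 and ATF4, transcription factors of stress responses, were higher in both, by 1.35, 1.06 and 1.06 and by 1.35, 0.66 and 0.71. FOXO3, a forkhead factor that can activate CDKN1B, was lower in both, by -0.40 and -1.09. MDM2, a p53 target like CDKN1A, averaged 56.0 ± 7.4 with gedunin, 61.7 ± 9.2 in the labelled R1881 group and 46.1 ± 7.2 in the labelled vehicle group (SD, n = 3 each). It passed in neither gedunin comparison (-0.14, adjusted p = 0.549, and 0.28, adjusted p = 0.156). Against labelled vehicle it passed without the first vehicle array and with the replicate number as a block (adjusted p = 0.0275 to 0.0472). Of its 5 probe sets 0 were called in either gedunin comparison and 2 between labelled R1881 and labelled vehicle. KLF6 had a further probe set near 0 in both gedunin comparisons (-0.06 and -0.05). Between labelled R1881 and labelled vehicle KLF6 was not called (-0.40, adjusted p = 0.0517) but passed under 8 of 17 alternatives (0.0099 to 0.0442). TCF7L2, of the same list, was not called by its brightest probe set in any comparison. Its 6 probe sets ran from -0.83 to -0.01 for gedunin against labelled R1881, and 4 of them were called. For labelled R1881 against labelled vehicle they ran from -0.23 to 1.22, and 4 were called. The values -0.01 and -0.23 are those of the brightest probe set, which was not called. With the median of each gene's probe sets 2 genes were lower with gedunin than labelled R1881. Labelled R1881 against labelled vehicle had 1 higher and 6 lower (median -0.24), led by PPM1D, a p53-induced phosphatase, at -1.03, and the higher gene was MDM2 at 0.42, whose groups overlapped and whose call was lost without vehicle replicate 2 or 3 or R1881 replicate 1 or 3 (adjusted p = 0.092 to 0.122). PPM1D was also lower with gedunin than labelled vehicle (-0.84, adjusted p = 1.33e-05), averaging 34.3 ± 3.0 and 61.5 ± 4.7 (SD, n = 3 each). Against labelled R1881 PPM1D was not called (0.19, adjusted p = 0.164) unless the second R1881 array was left out (adjusted p = 0.0424).

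Of the chaperone genes that serve CDK4 and CDK6 proteins, HSP90AA1 and HSP90AB1 were higher with gedunin in both comparisons, by 0.74 and 0.31 against labelled R1881 and by 0.95 and 0.40 against labelled vehicle. CDC37 was not called against labelled R1881 (-0.03) and was lower than labelled vehicle by -0.36 (adjusted p = 0.00458). Labelled R1881 against labelled vehicle had 1 of the 3 higher, HSP90AA1 at 0.21, and 1 lower, CDC37 at -0.32.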

How the data were processed

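Total RNA from 9 LNCaP cultures was extracted with Trizol and labelled with biotin, per the labels' protocols. The authors deposited linear intensity values, 1 for each probe set on each array, made with RMA per the submitters' processing notes; its version is not given in the sources used here. RMA equalises the arrays' distributions, which hides any shift in the total RNA of a cell. Some arrays hold exactly equal values: among the 18 probe sets, 1, 5 and 2 had equal values within the groups gedunin plus R1881, labelled R1881 and labelled vehicle. Precision is limited by 3 arrays per group.

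Values were taken to log2. Of 22277 probe sets, 62 controls were left out, and 19064 had 1 symbol in the platform annotation, 1043 several and 2108 none. Of these 19064, gene identifiers matched RefSeq (GRCh38.p14, names only) for 19052. The brightest probe set over 9 arrays stands for each of 11963 genes. limma 3.58.1 (R 4.3.3; lmFit, contrasts, eBayes without trend, 6.08 prior degrees of freedom) was fitted to all 22215 probe sets with 1 coefficient per group over 9 arrays, with two-sided tests and Benjamini-Hochberg adjustment over all probe sets at 0.05. The fit was tested on simulated data. Each log2 fold change carries its limma standard error or unadjusted 95% interval. The members, lists and tests were chosen with earlier results of these data known. The genes named are all members, up to 4 called genes per list and comparison by size of change, and the nearest profiles. Some further genes are named where a call depended on the probe set or the alternative. SYP, CD3E and LCP1 stand for their marker lists. Replicates were not paired.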

Additional observations from a re-analysis of the deposited data

How the results depend on the processing

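Results were recomputed under 18 alternatives: 9 that each leave out 1 array, and others that change the scaling, the offset, the filter on dim probe sets, the variance model, the arrays in the fit, the unit or the replicate number as a block. Over these, CDKN1A, CDKN1B and CCND1 kept their calls and directions in both gedunin comparisons, and no called value of a member changed sign. CDKN1A ranged from 0.68 to 0.73 and from 0.76 to 0.82 without 1 array each, against labelled R1881 and labelled vehicle. Member calls that ended or began for CDK2, CCND3, CDKN1C and RB1 are given above, except that CDKN1C 213348_at passed against labelled R1881 under 3 alternatives (an intensity trend, without the third gedunin or the third R1881 array; adjusted p = 0.0479, 0.0361 and 0.0255). CCND1 passed between labelled R1881 and labelled vehicle with the median of its probe sets (0.30, adjusted p = 0.0119), as did CDKN1C without the third R1881 replicate (-0.31, adjusted p = 0.0235). RB1 also passed there under 4 further settings (adjusted p = 0.0304 to 0.0443). With fewer features in the fit, 1 probe set per gene, 3277, 3219 and 3624 were called of 11963 (gedunin against labelled R1881, gedunin against labelled vehicle, labelled R1881 against labelled vehicle). Without 1 array each, 4614 to 5459, 4286 to 5541 and 5209 to 5842 probe sets were called, against 5406, 5223 and 6007. With the replicate block the counts were 5297, 5107 and 5897 probe sets and 4, 5 and 3 member genes; RB1 was the member added (adjusted p = 0.041), and same-numbered arrays of different groups did not deviate together (r from -0.10 to 0.14 over 9 pairs, across probe sets), so the numbers are not taken to pair the samples. The E2F-linked genes lower with gedunin than labelled R1881 numbered 10 to 12 over the alternatives. Probe sets under the lowest array median limit what can be said of CDKN1C, CDKN2D and CDK6.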
